A study of Mus musculus with 2 samples.

Results

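The genes described here are the 10 members of the receptor family of IL-1, IL-18 and IL-33: Il1rl1, Il1r1, Il1rl2 and Il18r1, which bind ligand, Il1rap and Il18rap, the accessory chains, and Il1r2, Sigirr, Il1rn and Il18bp, the decoys and inhibitors. They were taken by symbol from the 24346 symbols of both deposited libraries, and all 10 were found. RNA of sorted GFP+CD4+ cells was sequenced in bulk on day 15 after bleomycin (BLM) in Foxp3-DTR-GFP (FDG) mice, with 1 library for spleen and 1 for lung, each from 3 mice pooled. In FDG mice GFP, fused to the diphtheria toxin receptor, is expressed from the Foxp3 locus, so that GFP marks regulatory T cells (Tregs). BLM, an agent that injures the lung and leads to fibrosis, was given to the mice of both libraries, and no other treatment is labelled. The comparison is thus of lung Tregs with spleen Tregs in injured mice, and it cannot separate the tissue from the injury of that tissue. With 1 pooled library per tissue, no variation between mice was measured and no p-value is given.

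Receptors of this family share a cytoplasmic TIR domain, through which a ligand-bound receptor and its accessory chain recruit MyD88 and IRAK kinases and activate NF-kB. ST2, encoded by Il1rl1, binds IL-33, an alarmin released by damaged barrier cells, and is characteristic of Tregs in non-lymphoid tissues, where IL-33 promotes their accumulation and a tissue repair program. The family also holds its own brakes: a decoy receptor without a TIR domain (IL-1R2), an inhibitory receptor (SIGIRR), a receptor antagonist (IL-1Ra) and a soluble binding protein (IL-18BP).

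Of the 10 genes, 4 were over 2-fold higher in lung Tregs: Il1rn, Il1rl1, Il18rap and Il1r2. Il1rl2 was the only one over 2-fold lower, and the other 5, among them the barely detected Il1r1, differed by less than 2-fold with a floor of 0.1 FPKM. In both libraries most family transcript was of decoys and inhibitors, Sigirr and Il1r2 foremost, and not of receptors that signal. FPKM is the number of fragments of a gene scaled to its length and to the depth of the library, so it can be compared between genes, and all folds below are lung over spleen FPKM with values under 0.1 set to 0.1.

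The members Il1r2, Il1r1, Il1rl2, Il1rl1, Il18r1 and Il18rap, 6 genes in this order, lie on the plus strand of mouse chromosome 1 within 477.6 kb (chr1:40074079-40551705, GRCm38, GENCODE M21). The promoters of Il1rl1, Il18rap and Il1rl2 are shown because these cluster genes differed most between the libraries, in both directions, and those of Il1rn and Il1r2 because they are the other members over 2-fold. Each runs from 250 bases before to 50 bases after a RefSeq transcription start on GRCm38.p6, is written 5′ to 3′ on the gene's strand, and has in capitals every match, on either strand, to 6 short motifs. The letters searched were AGATAA for the factors of the GATA family, TGANTCA for those of AP-1, TGTGGT for the Runx family, TGTTTAC for forkhead factors such as Foxp3, GGANTTTCC for NF-kB, and CACGTG for factors that bind the E-box. Il1rl1 has 2 annotated RefSeq starts: the upstream window (chr1:40429320-40429619) begins a transcript of the soluble form of ST2, and the downstream window (chr1:40439379-40439678) a transcript of the membrane form. A further transcript of the soluble form starts at chr1:40439776, shortly beyond the downstream window, so the 2 windows do not separate the forms. The other windows are those of Il18rap (chr1:40515112-40515411), Il1rl2 (chr1:40324339-40324638), Il1r2 (chr1:40085843-40086142) and the upstream start of Il1rn (chr2:24336610-24336909), all on the plus strand.
Il1rl1 upstream: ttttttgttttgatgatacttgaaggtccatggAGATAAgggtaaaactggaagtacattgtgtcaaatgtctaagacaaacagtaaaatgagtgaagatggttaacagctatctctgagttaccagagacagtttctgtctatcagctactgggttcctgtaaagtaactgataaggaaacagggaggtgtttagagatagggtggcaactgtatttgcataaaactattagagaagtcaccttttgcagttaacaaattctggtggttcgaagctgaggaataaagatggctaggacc
Il1rl1 downstream: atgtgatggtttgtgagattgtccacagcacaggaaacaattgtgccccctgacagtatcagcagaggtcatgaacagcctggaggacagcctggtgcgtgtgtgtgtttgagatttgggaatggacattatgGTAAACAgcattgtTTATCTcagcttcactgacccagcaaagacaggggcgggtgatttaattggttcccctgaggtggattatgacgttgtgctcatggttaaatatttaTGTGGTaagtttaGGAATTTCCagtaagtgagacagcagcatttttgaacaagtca
Il18rap: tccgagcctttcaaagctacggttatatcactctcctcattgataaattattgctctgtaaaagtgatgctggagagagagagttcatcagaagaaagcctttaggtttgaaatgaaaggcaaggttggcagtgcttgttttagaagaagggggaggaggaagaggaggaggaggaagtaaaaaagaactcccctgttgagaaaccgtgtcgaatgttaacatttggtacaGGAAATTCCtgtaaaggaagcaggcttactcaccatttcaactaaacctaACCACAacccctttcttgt
Il1rl2: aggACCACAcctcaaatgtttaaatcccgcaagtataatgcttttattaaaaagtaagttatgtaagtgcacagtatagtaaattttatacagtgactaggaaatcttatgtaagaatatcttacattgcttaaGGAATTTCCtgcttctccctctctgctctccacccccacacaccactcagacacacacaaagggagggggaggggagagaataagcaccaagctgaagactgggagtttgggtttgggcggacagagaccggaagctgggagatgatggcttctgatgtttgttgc
Il1r2: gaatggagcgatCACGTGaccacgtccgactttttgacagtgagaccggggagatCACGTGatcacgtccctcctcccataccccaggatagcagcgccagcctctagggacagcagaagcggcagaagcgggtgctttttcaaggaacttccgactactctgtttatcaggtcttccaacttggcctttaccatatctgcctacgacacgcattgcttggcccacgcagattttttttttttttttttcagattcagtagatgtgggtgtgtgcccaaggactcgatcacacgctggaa
Il1rn upstream: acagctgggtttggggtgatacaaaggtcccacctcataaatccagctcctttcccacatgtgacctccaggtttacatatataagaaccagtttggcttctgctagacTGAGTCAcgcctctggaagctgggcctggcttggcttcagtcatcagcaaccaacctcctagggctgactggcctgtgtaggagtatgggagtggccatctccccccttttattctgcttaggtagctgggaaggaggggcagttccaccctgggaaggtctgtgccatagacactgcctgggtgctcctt

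RefSeq entries were matched for 9 of the 10 members, with 15 promoter windows of 300 bases; Sigirr had no entry. The NF-kB letters were present in the downstream Il1rl1 window at position 7, in Il18rap at -19 and in Il1rl2 at -116, counted from 0 at the start base to the first base of the match, and 1.26% of 32817 RefSeq promoter windows held them. Il1rl1, higher in lung, and Il1rl2, at 0 in lung, thus carried the same letters. GATA letters stood in both Il1rl1 windows, at -217 and -103, and in 11.2% of all windows. The downstream Il1rl1 window also held forkhead letters (3.65% of all windows) at -117 and Runx letters (16.8%) at -6. Runx letters were also found in Il1rl2, Il18rap, 1 of the 3 windows of Il18r1 and Il18bp. The upstream Il1rn window, where a transcript of 159 codons starts, held AP-1 letters (7.81% of all windows) at -141. The other 2 Il1rn windows, which hold the start of the longest coding form, of 178 codons, had no match. Il1r2 held the E-box letters (7.15%) at -238 and -195. No match was found in the windows of Il1r1 and Il1rap. A match describes letters and not binding, and the E-box was added to the search after the Il1r2 window had been read.

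Il1rl1 (ENSMUSG00000026069.15, chr1:40429570-40465415), the IL-33 receptor, was at 2.46 FPKM in spleen Tregs and at 25.8 FPKM in lung Tregs. Its level was 10.5-fold higher in lung, with an interval of 8.15 to 13.9 from the counting of reads. Reads behind each FPKM were estimated from transcript length and from what 1 read was worth in each library, 62.5 in spleen and 744 in lung for Il1rl1, and the intervals given here are 95% Clopper-Pearson intervals of the ratio of such reads. They cover counting error only, because copies made by PCR are counted as reads and nothing is measured between mice. Of the 12094 genes that reached 1 FPKM in at least 1 library, 5.92% had a higher ratio than Il1rl1. Among the 10 family genes it ranked 7 in spleen and 4 in lung.

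Il1rl1 encodes a membrane receptor of 567 codons and a shorter soluble form of 337 codons that lacks the membrane anchor and TIR domain and binds IL-33 as a decoy. The deposited value is 1 FPKM per gene, so the forms cannot be told apart, and the read estimate depends on which was present: for transcripts of 1216 to 5302 nt it runs from 25.7 to 130 reads in spleen and from 306 to 1545 in lung. The FPKM ratio was taken without this read estimate. Since FPKM is scaled to length, the ratio could still shift if the mix of forms differed between the libraries. The 5 genes with levels nearest to those of Il1rl1 in both libraries, by Euclidean distance of log2(FPKM + 0.1), were Hsd3b7 at a distance of 0.0403, 2210417A02Rik at 0.0687, Nupr1 at 0.0868, Tnfaip2 at 0.109 and Cd300ld at 0.181. With only 2 libraries such likeness describes a pair of levels.

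Il18r1 (ENSMUSG00000026070.15, chr1:40465552-40500854), which binds IL-18, starts 136 bases after the annotated end of Il1rl1. It was at 12.9 FPKM in spleen and at 16.1 in lung, a 1.25-fold difference (counting interval 1.06 to 1.49). The order of these neighbours thus turned: in spleen Tregs the IL-18 receptor was 5.23 times the level of the IL-33 receptor, and in lung Tregs 0.626 times. The 1.25-fold difference changed sign when each library was rescaled to the same FPKM total.

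Il1r1 (ENSMUSG00000026072.12, chr1:40225080-40317257), the signalling receptor of IL-1, was barely detected in either library, at 0.0851 FPKM in spleen and 0.187 FPKM in lung. These values stand for about 4.52 and 11.3 reads, and the counting interval of the ratio, 0.621 to 7.11, included equality, so a difference was not detectable at this depth. It was the only member under 1 FPKM in both libraries.

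Il1rl2 (ENSMUSG00000070942.8, chr1:40324610-40367562), the receptor of the IL-36 cytokines, was at 1.94 FPKM in spleen Tregs and was listed at 0 in lung Tregs. Spleen held about 54.7 reads (35.0 to 74.3 for its shortest and longest transcripts), and lung held none. With lung set at 3 reads, the level was 20.7-fold lower for the median transcript length and 13.2-fold lower for the shortest, and the counting intervals began at 16.4-fold and 10.2-fold. Il1rl2 lies between Il1r1 and Il1rl1 in the cluster and was the only member listed at 0 in either library.

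**Figure D1:**
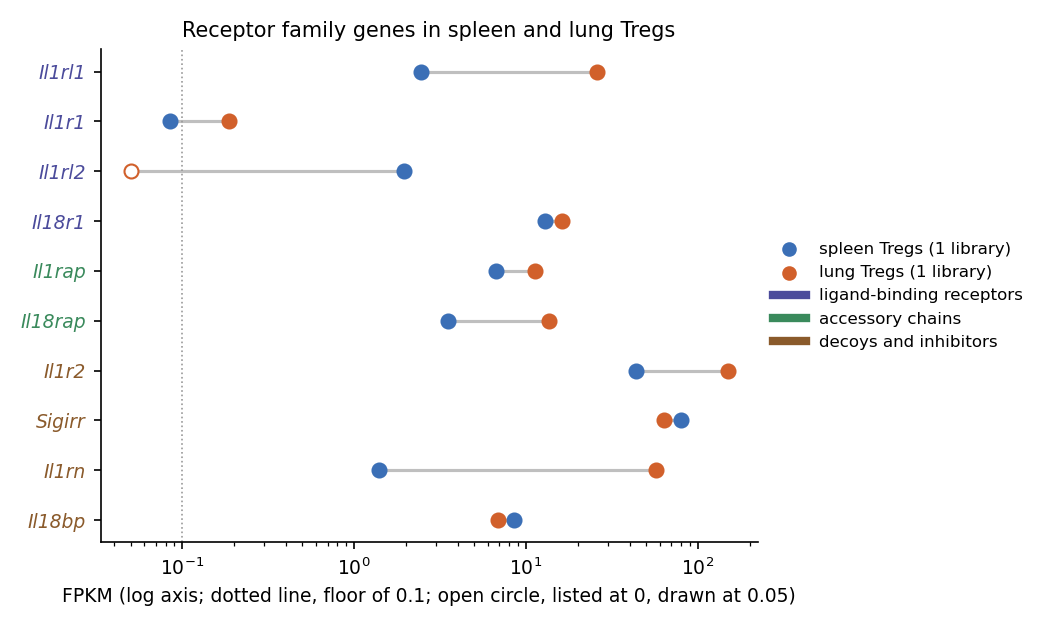
FPKM of the 10 family genes (log axis) in the spleen library (blue) and the lung library (orange), 1 point per library, with gene names coloured by role. Il1rn and Il1rl1 show the widest rises, from 1.40 to 56.8 and from 2.46 to 25.8 FPKM, Il1rl2 falls from 1.94 FPKM to a value listed at 0, drawn open at 0.05, and Sigirr and Il18bp lie slightly lower in lung.

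Il1rap (ENSMUSG00000022514.14, chr16:26581704-26730117) encodes the accessory chain shared by the receptors of IL-1, IL-33 and IL-36. It was at 6.69 FPKM in spleen and 11.2 FPKM in lung, 1.68-fold higher (counting interval 1.44 to 1.97). Because Il1rl1 differed more than its partner, the order of the pair turned: Il1rl1 was at 0.368 of the Il1rap level in spleen Tregs and at 2.29 times that level in lung Tregs.

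Il18rap (ENSMUSG00000026068.11, chr1:40515362-40551705), the accessory chain of the IL-18 receptor, was at 3.50 FPKM in spleen and 13.7 FPKM in lung. It was 3.90-fold higher in lung (counting interval 3.30 to 4.64). Its estimate of 170 and 753 reads is the firmest of the family, since Il18rap has a single RefSeq transcript, of 4889 nt, and came out at whole reads in both libraries to within 0.1 of a read. The 2 chains of the IL-18 receptor were unequal in spleen, where Il18r1 was 3.67 times Il18rap, and close to equal in lung, at 1.18 times. The difference in this pair lay in the accessory chain, as that in the IL-33 receptor pair lay mostly in the ligand-binding chain.

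Il1r2 (ENSMUSG00000026073.13, chr1:40074079-40125231), the decoy receptor that binds IL-1 without signalling, was at 43.8 FPKM in spleen Tregs and 149 FPKM in lung Tregs. It was 3.40-fold higher in lung (counting interval 3.07 to 3.77, from about 467 and 1804 reads) and went from rank 2340 to rank 819 among the genes above 0 in its library. Decoy exceeded signalling receptor by far in both libraries: Il1r2 was 515 times Il1r1 in spleen and 795 times in lung, though the denominators rest on the few reads of Il1r1. Gm16894, an antisense gene that overlaps Il1r2, was at 2.67 and 1.70 FPKM, and since no use of strand is stated, reads of the overlap could fall to either gene.

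Sigirr (ENSMUSG00000025494.8, chr7:141091175-141100572), which dampens signalling of the IL-1 and IL-18 receptors, was the leading member in spleen at 79.2 FPKM and second in lung at 63.8 FPKM. It was 1.24-fold lower in lung (counting interval 1.15 to 1.35), and 34.9% of all genes had a lower ratio. Its excess over Il1rl1 shrank from 32.2 times in spleen to 2.48 times in lung, mostly through the level of Il1rl1.

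Il1rn (ENSMUSG00000026981.15, chr2:24336853-24351494), the antagonist that occupies IL-1R1, was at 1.40 FPKM in spleen Tregs and 56.8 FPKM in lung Tregs. It was 40.5-fold higher (counting interval 27.4 to 61.9, from about 25.8 and 1189 reads), or 19.2 to 89.4 if all reads came from its shortest transcript (7.56 and 348 reads), and 1.46% of the genes had a higher ratio. Within the family it ranked 9 in spleen and 3 in lung. Il1rn is also abundantly made by macrophages and neutrophils, whose markers are given below with those of other cells.

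Il18bp (ENSMUSG00000070427.4, chr7:102014885-102018690), which neutralises IL-18, was at 8.48 FPKM in spleen and 6.90 FPKM in lung, 1.23-fold lower with a counting interval of 0.941 to 1.60 that included equality. The level of Il18r1 over that of Il18bp was 1.51 in spleen and 2.33 in lung.

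**Figure D2:**
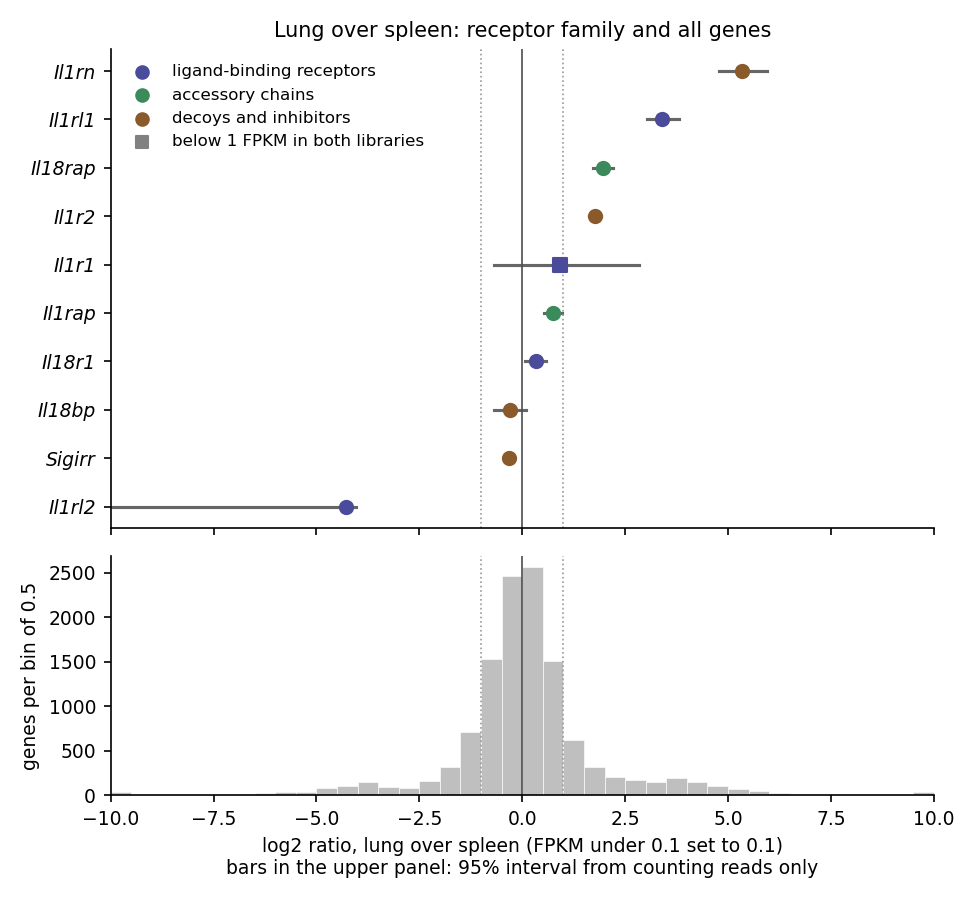
Upper panel, log2 ratio of lung over spleen FPKM for the 10 genes with 95% intervals from counting reads only (the interval of Il1rl2 is open to the left because no lung read was estimated). Lower panel, number of genes per bin of 0.5 among 12094 genes that reached 1 FPKM in either library, with ratios beyond the axis placed in the end bins; dotted lines mark 2-fold, and 4 family genes lie to the right of both lines and 1 to the left.

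Set against all genes, 4 of the 9 family genes at 1 FPKM or more were over 2-fold higher in lung, beside 17.8% of the 12094 genes, and 1 of 9 was over 2-fold lower, beside 15.5%. At the 20-fold threshold used in the study, 1 of 9 was higher (Il1rn), beside 3.27%, and 0 of 9 were lower, beside 2.35%. Il1rl2, 19.4-fold lower with the floor of 0.1 FPKM, lay close to that threshold, and its counting interval does not place it on either side. The median log2 ratio was 0.83 over all 10 members and 0.75 over the 9, beside 0.03 over all genes. Nothing particular to the family is read from these counts, which rest on 9 genes in 1 pair of libraries.

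The summed FPKM of the 10 genes was 160.5 in spleen and 344 in lung, 2.14-fold higher. By role, the sums in spleen and lung were 17.3 and 42.1 FPKM for the 4 ligand-binding receptors, 10.2 and 24.9 for the 2 accessory chains, and 133 and 277 for the 4 decoys and inhibitors. All 3 roles thus had higher sums in lung as deposited, by 2.43-fold, 2.44-fold and 2.08-fold. The FPKM of all symbols also summed higher in lung, 808853 against 599633, and the role sums were not rescaled. Among the decoys and inhibitors, Il1r2 and Il1rn were higher in lung, and Sigirr and Il18bp were lower. Within the family the order changed: Sigirr went from 49.4% of the summed FPKM in spleen to 18.6% in lung, Il1r2 from 27.3% to 43.4%, and Il1rn from 0.874% to 16.5%. Il1rl1 made up 1.53% in spleen and 7.50% in lung.

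**Figure D3:**
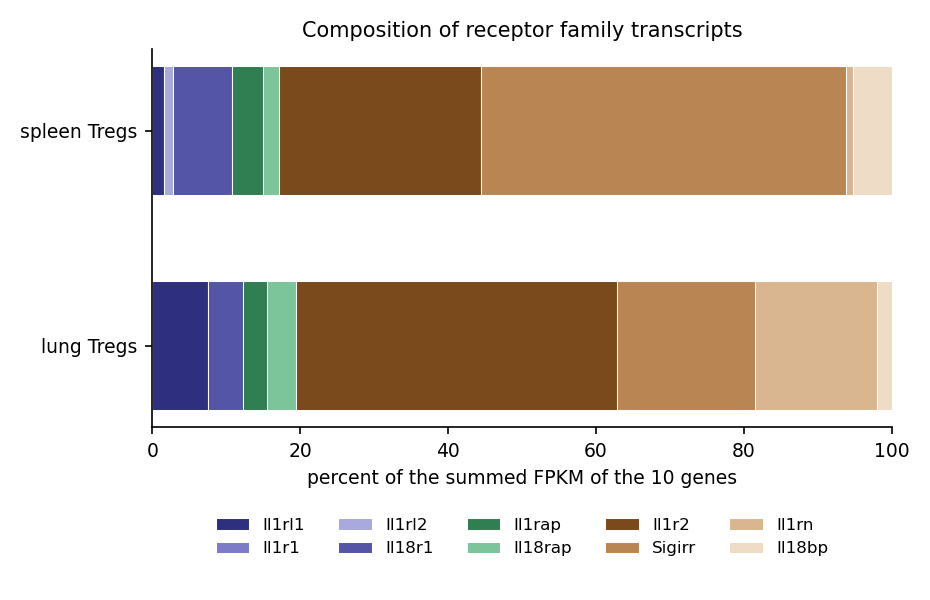
Share of each gene in the summed FPKM of the 10 family genes, as stacked bars from 0 to the whole, in percent, for the spleen and lung library (blue, ligand-binding receptors; green, accessory chains; brown, decoys and inhibitors). Sigirr takes 49.4% in spleen and 18.6% in lung, Il1r2 and Il1rn widen in lung, and Il1r1, at under 1% in both, is too thin to see.

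Along the cluster on chromosome 1 the genes did not differ together. Reading from Il1r2 to Il18rap, the log2 ratios were 1.77, 0.91 for the barely detected Il1r1, -4.28 for Il1rl2, 3.39, 0.33 and 1.96. GENCODE annotates 22 further genes in the cluster and within 500 kb on both sides, of which 11 are listed in the libraries and 4 reached 1 FPKM. Rnf149, a ubiquitin ligase gene, was at 22.1 FPKM in spleen and at 29.2 in lung, and Map4k4, a kinase gene, was at 9.59 and 9.19 FPKM. Mfsd9, beyond the Il18rap end of the cluster, was at 0.721 FPKM in spleen and 4.33 FPKM in lung, 6.01-fold higher, and the remaining one was Gm16894. Creg2, at 0.957 FPKM in lung, and Slc9a4, at 0.799, were listed at 0 in spleen, and the other 5 were at 0 in both libraries.

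**Figure D4:**
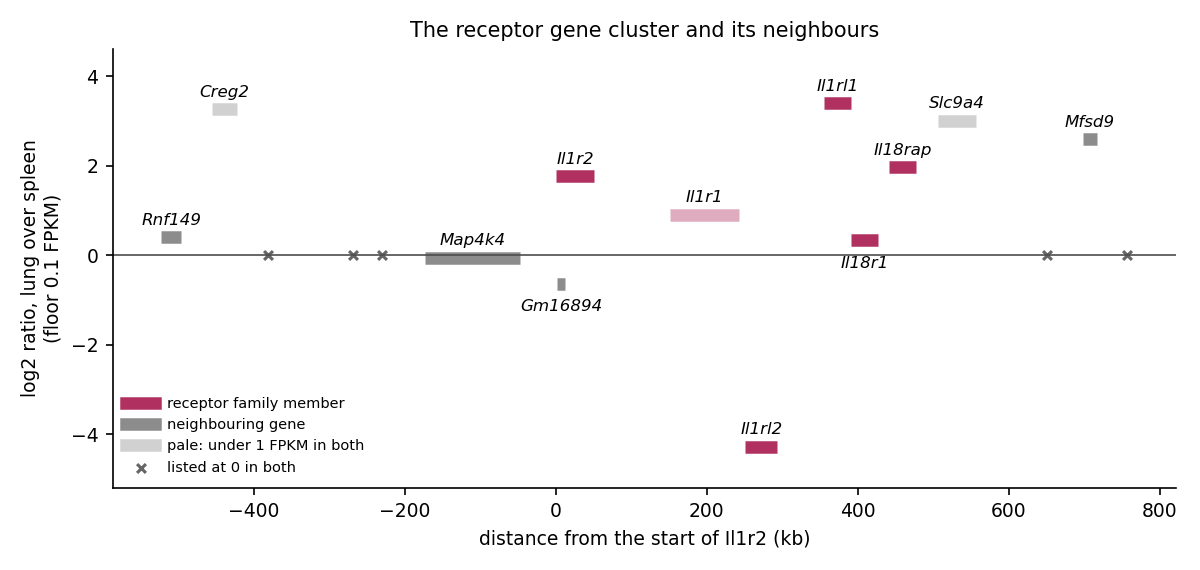
Log2 ratio of lung over spleen FPKM (floor of 0.1) against distance in kb from the start of Il1r2, for the 6 clustered family genes (red) and the listed neighbours (grey), each bar spanning the gene. Il1rl1, at 3.39, and Il18r1, at 0.33, adjoin each other, and Il1rl2 lies at -4.28 between higher genes; pale bars are genes under 1 FPKM in both libraries and crosses are genes listed at 0 in both.

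The ligands of these receptors were read in the same libraries. All 4 ligands at 1 FPKM or more were over 2-fold higher in lung as deposited, and 3 of them after rescaling to equal totals. As deposited, 17.8% of all genes were over 2-fold higher and 15.5% over 2-fold lower. Il1b was at 23.2 FPKM in spleen and at 485 in lung (20.9-fold), and Il1a at 2.02 and 26.3 FPKM (13.0-fold). Il18 was at 19.1 and 48.9 FPKM (2.57-fold), and the IL-36 gamma gene, listed as Il1f9, at 1.61 and 9.09 FPKM (5.65-fold). Il33 itself was listed at 0 in both libraries, as were Il1f6, Il1f8, Il1f5 and Il1f10, so transcripts of the ST2 ligand were not detected in either library. IL-1β and IL-18 are matured by inflammasome caspases. Of 7 genes of such processing at 1 FPKM or more, 1 was over 2-fold higher and 6 were within 2-fold. The one was Nlrc4, a sensor of bacterial proteins, at 0.903 FPKM in spleen and 4.84 FPKM in lung, while Casp1, which cleaves IL-1β and IL-18, was at 41.6 and 74.4 FPKM. Il1rapl1 and Il1rapl2, receptors of the family known from neurons, were at 0 in both libraries apart from 0.0370 FPKM of Il1rapl2 in lung.

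Downstream of the receptors, the TIR signalling chain was present in both libraries and mostly within 2-fold. Of its 19 genes at 1 FPKM or more (20 listed), 1 was over 2-fold higher, 4 were over 2-fold lower and 14 were within 2-fold, beside 17.8% higher and 15.5% lower among all genes, and the median log2 ratio was -0.31 beside 0.03. The shared adaptor Myd88 was at 63.4 FPKM in spleen and at 74.8 in lung, and the kinase Irak4 at 17.1 and 20.3 FPKM. Both stayed within 2-fold as deposited, and so did Irak1, 1.77-fold lower at 51.9 and 29.4 FPKM. The lower genes included the ubiquitin ligase Traf6, at 17.0 and 5.76 FPKM (2.96-fold lower), and the kinase TAK1 (Map3k7), at 15.8 and 6.15 FPKM (2.56-fold lower), which act in sequence below IRAK. Ecsit, a TRAF6 partner, was 6.89-fold lower, from 27.2 to 3.94 FPKM, and Peli2, a ubiquitin ligase of IRAK1, was at 1.03 FPKM in spleen and listed at 0 in lung. Tab3, an adaptor of TAK1, was the only higher one, at 2.44 and 5.96 FPKM.

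Genes known from ST2+ tissue Tregs were described beside Il1rl1. Of these 13 genes, all at 1 FPKM or more, 10 exceeded 2-fold in favour of lung as deposited and 3 stayed within it. Among the 10, Tnfrsf4 (2.06-fold), Batf (2.08-fold), Irf4 (2.46-fold) and Hopx (2.53-fold) lay nearest to 2-fold. The count was not repeated on equal totals, a rescaling that shifted the median log2 ratio by -0.43. The shares over all genes were 17.8% higher and 15.5% lower. The median log2 ratio of the list was 1.34, beside 0.03 over all genes. The whole list was chosen with earlier results of these data known, and it includes Tff1, which the study chose on these libraries. The count and median of the list are thus not independent evidence. Areg, an epidermal growth factor receptor ligand linked to repair, was at 5.84 FPKM in spleen and 207 FPKM in lung (35.5-fold). Pparg, a nuclear receptor of tissue Tregs, was at 3.57 and 28.2 FPKM, and Klrg1, a marker of differentiated Tregs, at 34.2 and 169 FPKM. Gata3, a transcription factor of ST2+ Tregs, was within 2-fold at 69.1 and 77.3 FPKM, as were Il10 and Tnfrsf9. Among genes that go with the IL-18 receptor in T cells, Tbx21, the factor of type 1 cells, was at 8.35 FPKM in spleen and at 7.83 in lung, and Cxcr3, a chemokine receptor of such cells, at 82.8 and 99.2 FPKM.

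**Figure D5:**
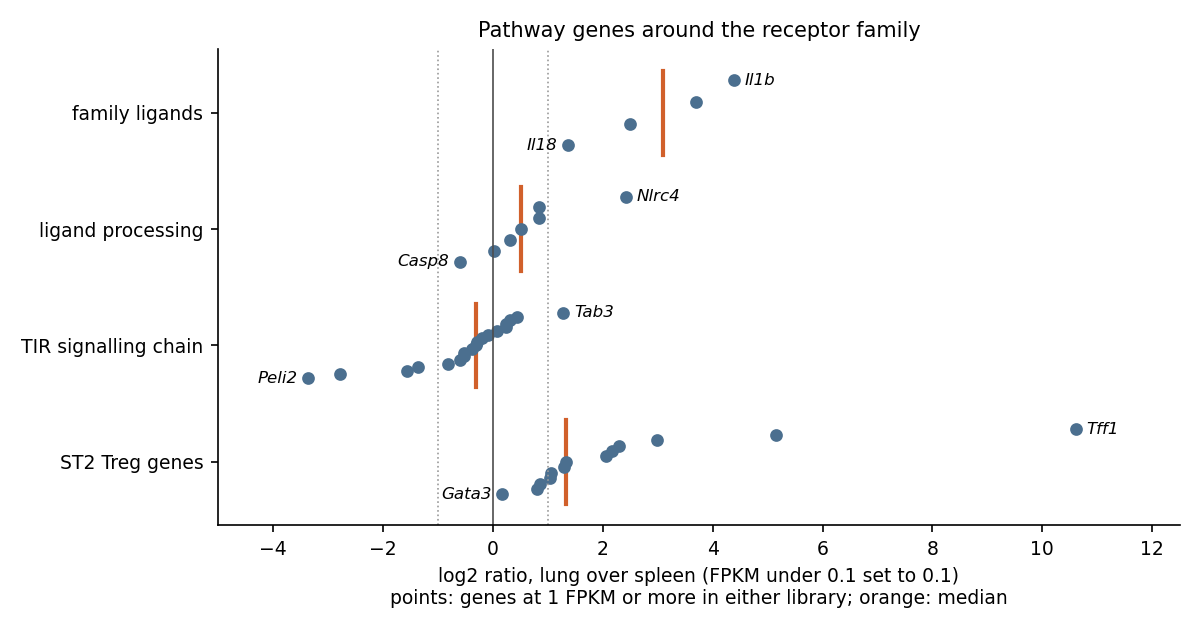
Log2 ratio of lung over spleen FPKM for 4 gene lists around the receptor family, 1 point per gene at 1 FPKM or more in either library, with the median in orange and the lowest and highest gene of each list named. The ligands and all 13 ST2 Treg genes lie above 0, whereas the median of the TIR signalling chain is -0.31.

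Other cells of the tissue also express these receptors, and their markers were read in the same libraries. The marker counts stand beside shares over all genes of 17.8% over 2-fold higher and 15.5% over 2-fold lower. T cell markers were level, with 7 of 7 within 2-fold and sums of 3530 and 3561 FPKM in spleen and lung. Of 7 Treg markers 2 were over 2-fold higher in lung, Foxp3 at 18.7 and 41.8 FPKM and Ctla4 at 221 and 601 FPKM, 1 was over 2-fold lower, Lrrc32 at 69.4 and 30.4 FPKM, and 4 were within 2-fold, with a median log2 ratio of -0.01. All 12 macrophage markers were higher in lung, 9 of them over 2-fold, and their sum was 679 FPKM in spleen against 27266 in lung, of which Lyz2 made up 376 and 24947 FPKM. Neutrophil markers summed to 489 and 1222 FPKM, with 5 of 9 over 2-fold higher and 2 lower, among them Ngp, at 36.4 FPKM in spleen and 0 in lung. Epithelial markers summed to 11.0 and 3135 FPKM (7 of 8 over 2-fold higher, 1 lower), of which Scgb1a1 made up 1.48 and 3021 FPKM. Fibroblast markers summed to 1.15 and 197 FPKM (6 of 6), of which Mgp made up 0 and 116 FPKM. Dendritic cell markers summed to 13.6 and 74.4 FPKM (4 of 7, 1 lower) and B cell markers to 259.6 and 135 FPKM (0 of 6, 3 lower). Endothelial markers summed to 55.5 and 48.9 FPKM (3 of 4), mostly through Pecam1, at 54.8 and 31.7 FPKM. The 3 higher ones were Cldn5, at 0.160 and 6.54 FPKM, Egfl7, at 0.101 and 8.04 FPKM, and Vwf, at 0.425 and 2.03 FPKM. Sums of macrophage, neutrophil, epithelial, fibroblast and dendritic cell markers were thus higher in lung, as were Il1rn, Il1b, Il1a, Il1r2 and Il1rl1. The part of these cells in these results was not tested. In bulk samples, fewer cells of a type and less RNA per cell cannot be told apart.

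Cells other than Tregs known for ST2 had markers that varied. Mast cell and basophil markers had sums of 5.96 and 14.8 FPKM in spleen and lung, with Mcpt8 and Mcpt4 at 0 in both libraries and Cpa3 at 0.620 and 0.0682 FPKM, while Hdc, at 11.8 FPKM in lung, was the 1 of 3 markers at 1 FPKM or more that was over 2-fold higher. Group 2 innate lymphoid cell markers summed to 116 and 516 FPKM, with 7 of 9 over 2-fold higher. That list shares Areg, Gata3 and Klrg1 with the ST2 Treg genes. Of its type 2 cytokines Il13 was at 0 in both libraries and Il5 at 0 in spleen and 4.87 FPKM in lung. Of the other unshared markers, Arg1 was at 0.380 and 33.7 FPKM, Calca at 0.144 and 5.72 FPKM and Il17rb at 2.29 and 13.8 FPKM. Nmur1 was at 0.191 and 2.02 FPKM, while Hes1 was within 2-fold at 3.57 and 2.60 FPKM. Eosinophil markers summed to 21.1 and 227 FPKM, mostly through Ear2, at 9.24 and 205 FPKM. Of 5 eosinophil markers 3 were over 2-fold higher and 2 lower, Ccr3 at 10.6 and 0.554 FPKM and Prg2 at 1.23 FPKM and 0, and Epx was at 0 in both libraries. Natural killer cell markers, which go with Il18r1 and Il18rap, summed to 31.0 and 36.4 FPKM, with 0 of 6 over 2-fold higher and 2 lower, among them Ncr1 at 2.69 FPKM in spleen and 0 in lung. The part of these cells in the levels of Il1rl1 and Il18rap was not tested.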

How the data were processed

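Reads of 75 bases, single-end, were mapped by the authors to mm10 (TopHat2 2.1.1, Bowtie2 2.2.8, SAMtools 0.1.18), and the deposited FPKM per gene symbol came from Cuffdiff 2.2.1. Libraries were made with SMART-Seq HT and Nextera XT, without molecular identifiers. The annotation, Cuffdiff options, strand use and scaling between libraries are not given in the sources used here. FPKM summed to 599633 in spleen and 808853 in lung, and 9542 and 10638 of 24346 symbols were at 0.

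Ratios were taken as deposited after setting values under 0.1 FPKM to 0.1. Counts of genes over 2-fold and 20-fold cover genes that reached 1 FPKM in either library, and the median log2 ratio of the members is given over all 10 and over those genes. Reads were estimated from median RefSeq-tied GENCODE M21 transcript lengths, found for 23677 symbols (97.3%, 23016 directly), with fragments of mean 200 and SD 80 and a shortest fragment of 71. At an effective length of 1 kb, 1 read was worth 0.0965 FPKM in spleen and 0.0850 in lung. Estimated reads summed to 9865877 and 12885629. For genes of 1 transcript length and few reads, 72.6% of 2091 values in spleen and 74.6% of 1246 in lung came within 0.1 of a whole read. Intervals are exact, at 95%, and cover counting error only. A fold against a value of 0 used 3 reads in that library. No test between tissues was possible with 1 library each.

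The genes named are the 10 members, annotated neighbours within 500 kb, the 5 genes nearest to Il1rl1 and fixed gene and marker lists. The counts of the fixed list of genes that go with the IL-18 receptor are not reported here. The members and lists were chosen with earlier results of these data known. The steps were tested on simulated data. Computations used Python 3.11.15 (scipy 1.17.1, numpy 2.4.6, matplotlib 3.10.9, pandas 2.3.3).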

Additional observations from a re-analysis of the deposited data

How the results depend on the processing

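The ratios were recomputed with floors of 0.01 and 1 FPKM or of 3 estimated reads, pseudocounts of 0.1 and 1 FPKM, 4 other scalings and 2 other filters. Il1rl1, Il1r2, Il18rap and Il1rn were over 2-fold higher in lung in 9 of 9 recomputed ratios each, and Il1rl2 over 2-fold lower in 8 of 9. With a floor of 1 FPKM, 0 family genes were over 2-fold lower, against 1, since Il1rl2 was at 1.94 FPKM in spleen. Rescaling each library to the same total (TPM) left 0 TIR signalling genes over 2-fold higher, against 1, put 6 over 2-fold lower, against 4, and left 3 ligands over 2-fold higher, against 4. That rescaling shifted the median log2 ratio of all genes by -0.43, equal upper quartiles by -0.18, and the other 2 scalings by -0.02 and -0.01. Under TPM, Il18r1 was at a log2 ratio of -0.11, against 0.33, so relative to the shift no direction is given for it, and Il1rl1 was at 2.96. The log2 ratio of Il1rn ranged from 4.59 to 5.34. No paired analysis was possible because each tissue has 1 library, and for the same reason no replicate could be left out. Depth limits Il1r1, with about 4.52 and 11.3 reads, and Il1rl2 in lung.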
